A study of Mus musculus with 8 samples.

Results

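Chemokines are small secreted proteins that guide leukocytes through tissue, and their receptors are G protein-coupled receptors carried by the cells that follow them. The gene group described here is a list of 41 chemokines and chemokine receptors of the mouse, found on the array by the RefSeq accession of each probe. Named probes were found for 40 of them, 28 ligands and 12 receptors, among 20653 named genes in all, and Cxcl11 had no named probe. These 40 genes were read by 47 probes. RNA came from whole kidneys of mice labelled male and aged 12 weeks. The 4 cinacalcet samples came from mice given cinacalcet hydrochloride for 5 days, at a dose worded in the labels as 1 mg per g body weight, and the 4 control samples from mice on standard chow for the same time. Cinacalcet is a calcimimetic, a drug that activates the calcium-sensing receptor. The labels give no strain. They also do not say whether each sample was a separate animal, and the p-values reflect only how much these samples vary, which may be technical.

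Chemokines are named by the spacing of their first cysteines as CC, CXC or CX3C ligands. A ligand binds one or a few receptors, which signal through inhibitory G proteins, and many inflammatory ligands are transcribed after interferon or NF-kB signalling, while homeostatic ligands are made steadily. In kidney, Cx3cr1 and Ccr2 are known as receptors of resident macrophages and recruited monocytes, and Cxcr3 as a receptor of activated T and natural killer cells. Because whole kidney was measured, fewer cells of a type and less RNA per cell cannot be told apart in any of the results that follow.

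Of the 26 genes of the group that were measured, 8 were lower in cinacalcet kidneys and 0 were higher at an adjusted p under 0.05 in limma. The 8 were the ligands Ccl4, Ccl5, Ccl12, Cxcl10 and Cxcl16 and the receptors Ccr2, Cx3cr1 and Cxcr3. Among all 14205 genes tested, 8.08% were called, 5.03% lower and 3.06% higher. A gene counted as measured when at least 1 of its probes was well above background on at least 4 of the 8 arrays, and the brightest such probe stood for it. Ccl12 passed that filter through the control arrays alone, so a difference in it was built into the filter, and it lends no support to the count. The median log2 fold change of the 26 was -0.60, against a median of -0.04 over all genes tested. Of the 26 estimates 21 were below 0, Ccl12 among them, against 8048 of 14205 over all genes tested. Setting Ccl12 at the bound given below could not move the median of the 26, since the bound also lies below that median.

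All 8 arrays were well measured, but they fell into sets that cross the groups. Between 51.8% and 58.0% of spots were well above background, no spot was saturated, and the 4 arrays per group limit the precision. All samples are labelled male, yet cinacalcet 2, cinacalcet 3 and control 4 had 0 of 4 Y-linked genes above background, and the other 5 arrays had 3 or 4. The same 3 arrays lay apart from the others on the first principal component, which held 56.0% of the variance. Where a call changes, the value is therefore also given from a fit that takes this split as a block, called the Y-linked block here, and from a fit to only the 5 arrays that carried the signal, cinacalcet 1 and 4 and control 1, 2 and 3. With the block, 17.3% of genes were called, 11.2% lower and 6.12% higher. The 5 arrays called 9.02%, with 6.63% lower and 2.39% higher. The same 8 chemokine genes were called lower with the block. On the 5 arrays, with p adjusted over genes, 6 of them were called lower, all but Cxcl16 and Cxcr3, and Cxcl1 was called higher.

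The kidney label was met by the data: all 12 kidney marker genes, among them Umod of the thick ascending limb and Lrp2 and Slc34a1 of the proximal tubule, were above background on all 8 arrays, and 0 of the 12 were called in the fit to all 8 arrays. With the Y-linked block 2 of them fell and on the 5 arrays 2 did, among them Calb1 of the distal tubule (log2 fold change -0.87 and limma adjusted p = 0.138 on all arrays, -1.10 and 0.00583 with the block, -0.91 and 0.0364 on the 5 arrays).

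The bases just upstream of 5 genes are shown because the largest falls were in these genes or, for Cxcl9, in its neighbour on the chromosome that shares the receptor Cxcr3. Each is the 250 bases before the transcription start from RefSeq (GRCm38.p6), written 5' to 3' on the gene's own strand, with matches to an NF-kB motif (GGGA, any 4 bases, CC) or an interferon-stimulated response element, ISRE (GAAA, any 2 bases, GAAA), in capitals. Both motifs were searched on both strands, and a TATA box (TATAAA) on the forward strand only.
Ccl12, chr11:82101595-82101844, + strand: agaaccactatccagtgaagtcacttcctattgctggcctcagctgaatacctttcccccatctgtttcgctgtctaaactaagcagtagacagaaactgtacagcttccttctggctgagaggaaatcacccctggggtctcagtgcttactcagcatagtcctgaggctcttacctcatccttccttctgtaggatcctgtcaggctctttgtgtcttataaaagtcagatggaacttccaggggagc
Cxcl10, chr5:92348890-92349139, - strand: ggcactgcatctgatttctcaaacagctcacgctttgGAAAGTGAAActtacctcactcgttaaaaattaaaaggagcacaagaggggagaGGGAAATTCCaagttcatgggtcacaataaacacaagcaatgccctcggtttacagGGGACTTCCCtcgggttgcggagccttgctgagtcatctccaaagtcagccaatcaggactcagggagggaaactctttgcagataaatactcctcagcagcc
Cxcl9, chr5:92328080-92328329, - strand: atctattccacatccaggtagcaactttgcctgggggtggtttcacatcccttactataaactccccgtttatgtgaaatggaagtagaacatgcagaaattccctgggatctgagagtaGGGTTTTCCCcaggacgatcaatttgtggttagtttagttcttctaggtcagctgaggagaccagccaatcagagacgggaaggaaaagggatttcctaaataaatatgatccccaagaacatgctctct
Ccr2, chr9:124101933-124102182, + strand: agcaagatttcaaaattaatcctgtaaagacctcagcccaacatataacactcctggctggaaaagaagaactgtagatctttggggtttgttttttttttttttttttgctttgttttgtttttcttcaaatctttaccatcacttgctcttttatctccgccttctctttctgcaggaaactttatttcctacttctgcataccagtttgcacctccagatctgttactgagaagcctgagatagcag
Cx3cr1, chr9:120068297-120068546, - strand: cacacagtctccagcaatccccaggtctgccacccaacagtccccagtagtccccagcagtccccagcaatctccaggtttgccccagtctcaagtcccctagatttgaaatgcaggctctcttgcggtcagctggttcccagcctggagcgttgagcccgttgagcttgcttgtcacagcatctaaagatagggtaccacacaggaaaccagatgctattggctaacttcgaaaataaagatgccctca
The Cxcl10 window held 1 ISRE match, starting 213 bases before the start site, and 2 NF-kB matches at 159 and 103 bases. The Cxcl9 window held 1 NF-kB match at 130 bases and a TATA box at 195 bases, and the Ccl12 window held a TATA box at 31 bases. The Ccr2 and Cx3cr1 windows held none of these letters. Over 32851 windows of the same length, 17.63% held the NF-kB motif, 2.977% the ISRE and 7.592% the TATA box. Windows were found for 30 chemokine and receptor genes, of which 12 held the NF-kB motif, 3 the ISRE (Ccl19, Cxcl10 and Cxcl14) and 9 the TATA box. Of the 8 genes that fell, 5 had a window, and Cxcl10 was the only one with an NF-kB or ISRE match. A match describes letters only and is no evidence that a factor binds there.

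**Figure D1:**
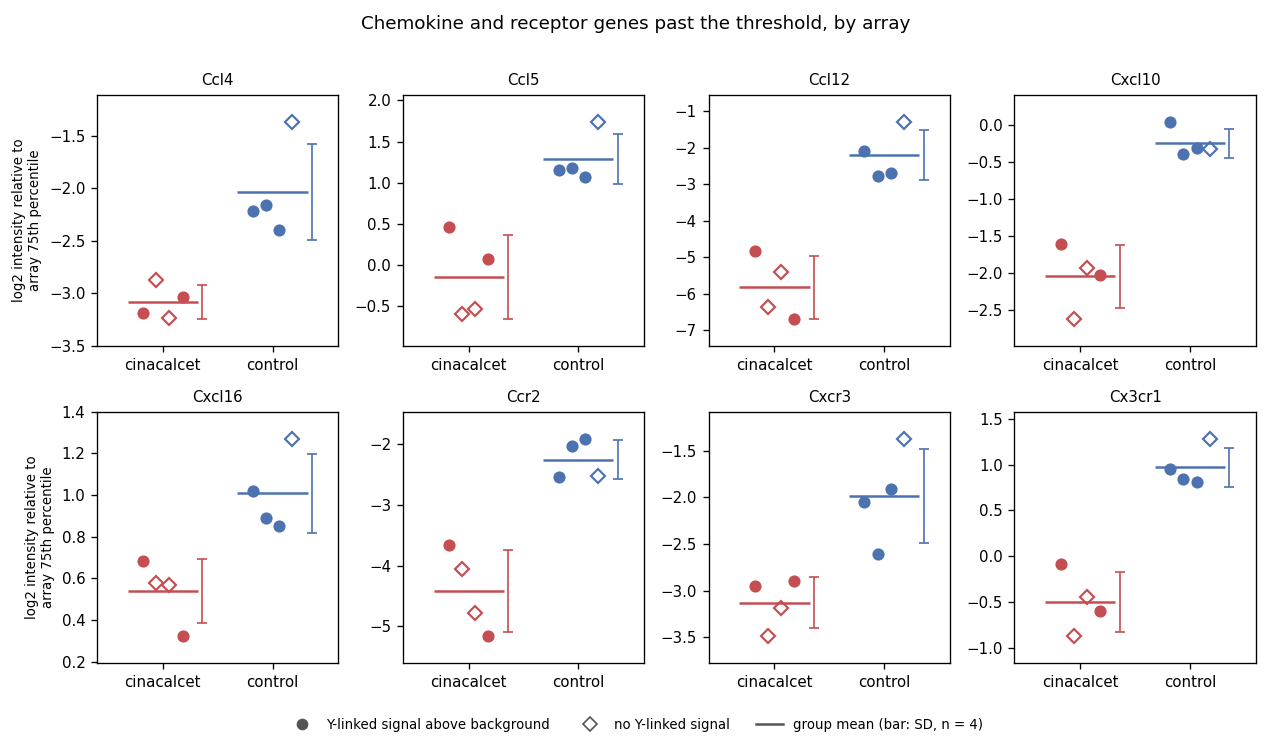
Log2 level relative to each array's 75th percentile (vertical axis) for the 8 chemokine and receptor genes called lower, 4 cinacalcet arrays on the left and 4 control arrays on the right of each panel, with bars for the mean and SD and diamonds for arrays without Y-linked signal. In each panel every cinacalcet array lies below every control array, with the widest gap between means in Ccl12, whose cinacalcet arrays are all under background.

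Among the CC ligands, which draw mainly monocytes and T cells, 11 of 17 were measured, and Ccl12, Ccl5 and Ccl4 fell while the other 8 did not pass the test. Ccl12, also called MCP-5, is a mouse ligand of the monocyte receptor Ccr2. Its log2 level, relative to the array's 75th percentile as for all levels here, was -4.83, -6.37, -5.42 and -6.70 on cinacalcet arrays 1 to 4, none of them well above background, against -2.08, -2.77, -2.68 and -1.29 on control arrays 1 to 4, all of them above it. The groups lay far apart, and control 4 was the highest. Because the cinacalcet level is only a bound, Ccl12 was at least about 4.84-fold lower in cinacalcet kidneys. This compares the control mean with, on each cinacalcet array, the higher of the dimmest signal well above background and the probe's own signal. That dimmest signal is not a strict limit: on cinacalcet 1 it was -4.41, while Ccl24, under background there, read -4.25. This bound, and those formed in the same way below, are therefore approximate. The limma estimate was a log2 fold change of -3.62 (SE 0.47) with an adjusted p of 0.00893. Since the filter let Ccl12 in only because it was high in control kidneys, that p and those of the other fits are no independent support for the difference. With normexp background correction, which raises dim signals, the log2 fold change was -0.69 (adjusted p = 0.0175).

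Ccl5, or RANTES, is made by T cells and other leukocytes and binds several CC receptors. On cinacalcet arrays 1 to 4 its log2 level was 0.46, -0.59, -0.54 and 0.08, against 1.16, 1.18, 1.07 and 1.74 on control arrays 1 to 4. The groups did not overlap, and the lowest cinacalcet values were those of the arrays without Y-linked signal, while the highest control value was that of control 4, which also lacks it. Ccl5 averaged -0.15 ± 0.51 in cinacalcet kidneys and 1.29 ± 0.31 in control kidneys (SD, n = 4 each), a 2.70-fold lower level (log2 fold change -1.43, SE 0.26, limma adjusted p = 0.0214). The 5 arrays with Y-linked signal gave -0.86 (adjusted p = 0.0319) on the log2 scale, while the other 3 gave -2.30, with 1 control array and no test. The call was lost without cinacalcet 2, cinacalcet 3, control 1, control 2 or control 3, at adjusted p-values of 0.0560 to 0.0632.

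Ccl4, or MIP-1 beta, is an inflammatory ligand made by macrophages and lymphocytes. The log2 level of Ccl4 was -3.19, -2.87, -3.23 and -3.04 on cinacalcet arrays 1 to 4, against -2.21, -2.16, -2.40 and -1.37 on control arrays 1 to 4. The cinacalcet arrays were closely grouped below all control arrays, and control 4 stood above the other controls. Ccl4 averaged -3.08 ± 0.16 in cinacalcet kidneys and -2.03 ± 0.46 in control kidneys (SD, n = 4 each), a 2.07-fold lower level (log2 fold change -1.05, SE 0.22, limma adjusted p = 0.0296). Without control 4 the log2 fold change was -0.82 with an adjusted p of 0.00763. Leaving out any one of the other 7 arrays ended the call, at adjusted p-values of 0.0528 to 0.0850, and so did using no filter (0.0614). The estimate was -0.44 with normexp background correction (adjusted p = 0.0346).

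Ccl2, or MCP-1, the best known ligand of Ccr2, did not pass the test. The log2 level of Ccl2 was -1.85, -3.01, -2.87 and -3.57 on cinacalcet arrays 1 to 4, against -1.82, -2.09, -2.14 and -1.93 on control arrays 1 to 4. Cinacalcet 1 lay among the controls and the other 3 cinacalcet arrays lay below them. The log2 fold change was -0.83 (SE 0.32, limma adjusted p = 0.138), and without cinacalcet 1 it was -1.16 (adjusted p = 0.0150).

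Ccl28, a mucosal and epithelial ligand of Ccr10 and Ccr3, split by Y-linked signal within both groups. The log2 level of Ccl28 was 1.06, -0.91, -0.61 and 1.36 on cinacalcet arrays 1 to 4, against 1.62, 2.62, 1.52 and -0.82 on control arrays 1 to 4. All 3 arrays without Y-linked signal were below 0, and the other 5 were above 1. All 8 arrays together gave a log2 fold change of -1.01 (SE 0.80, limma adjusted p = 0.437), the Y-linked block gave -0.43, not called, and the 5 arrays with the signal gave -0.71 (adjusted p = 0.239). With single arrays left out the estimate ran from -1.70 without control 4 to -0.55 without control 2.

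The remaining CC ligands that were measured had overlapping groups. Ccl25, the ligand of the gut-homing receptor Ccr9, had 2 kept probes, annotated to different transcript records, that disagreed. The brighter had a log2 level of 0.44, 0.40, 0.32 and 0.26 on cinacalcet arrays 1 to 4, against 0.90, 0.76, 0.65 and 0.37 on control arrays 1 to 4 (log2 fold change -0.31, limma adjusted p = 0.128), and the other gave 0.31 (adjusted p = 0.358 over probes). Only control 4 overlapped the cinacalcet arrays on the brighter probe, and without it the log2 fold change was -0.42 with an adjusted p of 0.0167. Ccl17, a ligand of Ccr4 made by dendritic cells, had the highest positive estimate among the 26 genes, with a log2 level of -1.37, -1.64, -1.83 and -1.48 on cinacalcet arrays 1 to 4, against -1.78, -2.63, -2.71 and -1.88 on control arrays 1 to 4 (log2 fold change 0.67, SE 0.23, adjusted p = 0.109). Cinacalcet 3 lay within the control range. Ccl19, a homeostatic ligand of Ccr7 whose near-identical genomic copies may share its probes, had estimates of -0.30, -0.40 and -0.28 on its 3 probes (adjusted p = 0.451 for the brightest). Ccl6 and Ccl9, both known as mouse ligands of Ccr1, had estimates of 0.17 (adjusted p = 0.469) and -0.10 (adjusted p = 0.840). Ccl8, known in the mouse as a ligand of Ccr8, was above background on 3 cinacalcet and 4 control arrays, with a log2 fold change of -0.68 (adjusted p = 0.515). That value rested on cinacalcet 4, without which it was -0.048, and on the 5 arrays it was -1.48 (adjusted p = 0.143).

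**Figure D2:**
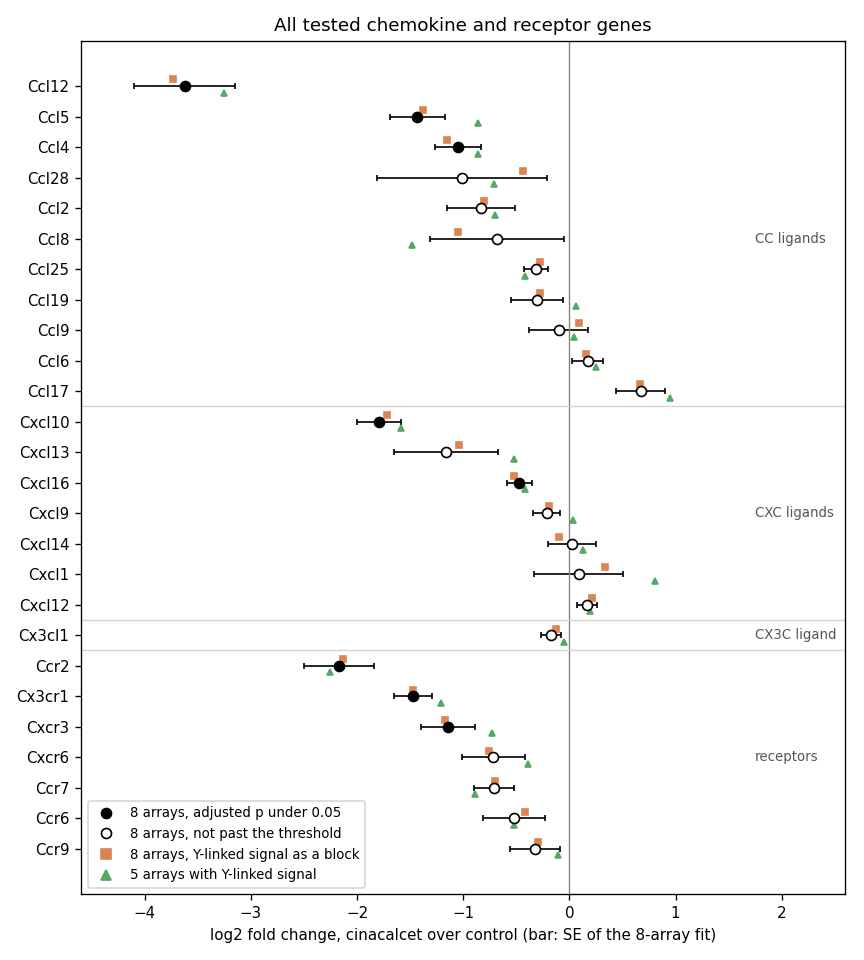
Log2 fold change, cinacalcet over control (horizontal axis), of the 26 measured chemokine and receptor genes (rows, by class), as circles with SE bars from the fit to 8 arrays (filled where the limma adjusted p is under 0.05), squares from the fit with the Y-linked block and triangles from the 5 arrays with Y-linked signal. The 8 genes called lower have estimates below 0 in all 3 fits, and the Cxcl1 triangle lies at 0.80, away from its circle at 0.09.

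Among the CXC ligands, 7 of the 10 on the array were measured, and Cxcl10 and Cxcl16 fell while the other 5 did not pass the test. Cxcl10, or IP-10, is an interferon-induced ligand of Cxcr3, and its upstream window above is the one with an ISRE match. The log2 level of Cxcl10 was -1.61, -2.62, -1.92 and -2.02 on cinacalcet arrays 1 to 4, against 0.04, -0.40, -0.31 and -0.32 on control arrays 1 to 4. The groups were well separated, and the arrays without Y-linked signal lay within the range of the others except for cinacalcet 2, the lowest. Cxcl10 averaged -2.04 ± 0.42 in cinacalcet kidneys and -0.25 ± 0.19 in control kidneys (SD, n = 4 each), a 3.47-fold lower level (log2 fold change -1.79, SE 0.21, limma adjusted p = 0.00800). It passed with each array left out in turn, with the Y-linked block (adjusted p = 0.00411) and on the 5 arrays (log2 fold change -1.59, adjusted p = 0.0245). With normexp background correction the log2 fold change was -1.05 (adjusted p = 0.00453).

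Cxcl9, or MIG, another interferon-induced ligand of Cxcr3, was read by 2 probes that did not give the same result. The probe that stood for the gene had log2 levels of -3.33, -3.56, -3.52 and -3.05 on cinacalcet arrays 1 to 4, against -3.26, -3.23, -3.17 and -2.94 on control arrays 1 to 4, overlapping groups with a log2 fold change of -0.21 (limma adjusted p = 0.317). The other probe had -4.72, -6.09, -6.34 and -6.64 on cinacalcet arrays 1 to 4, none well above background, against -2.45, -3.69, -2.27 and -2.20 on control arrays 1 to 4, all above it. On that probe the groups did not overlap, control 2 was the lowest control, and the level was at least 3.55-fold lower in cinacalcet kidneys (log2 fold change -3.30, SE 0.47, adjusted p = 0.0144 over all kept probes). Like Ccl12, this probe passed the filter through the control arrays alone, so a difference was built in and its p is no independent support. The call was lost on the 5 arrays (log2 fold change -2.88, adjusted p = 0.0845). With normexp background correction this probe's log2 fold change was -0.70 (adjusted p = 0.0075). The mean of both probes gave a log2 fold change of -1.76 (adjusted p = 0.0121), so the call for Cxcl9 depended on the probe rule. Of the 33 kept chemokine and receptor probes 9 were called lower, and 0 higher, including those of Ccl12 and of Cxcl9 that were under background on all cinacalcet arrays, against 2.86% lower and 3.11% higher among the 29732 kept probes on the array.

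Cxcl16, a membrane-bound ligand of Cxcr6 that is shed by proteases such as Adam10, fell by the least of the 8. The log2 level of Cxcl16 was 0.68, 0.58, 0.57 and 0.32 on cinacalcet arrays 1 to 4, against 1.02, 0.89, 0.85 and 1.27 on control arrays 1 to 4. The groups did not overlap, but their nearest arrays were close. The means were 0.54 ± 0.15 in cinacalcet kidneys and 1.01 ± 0.19 in control kidneys (SD, n = 4 each), a 1.38-fold lower level (log2 fold change -0.47, SE 0.12, limma adjusted p = 0.0490). The call was lost on the 5 arrays (log2 fold change -0.42, adjusted p = 0.103), without any array but control 4 (adjusted p-values of 0.0576 to 0.116), after quantile normalization (0.0599), with no filter (0.0993), with the slide row as a block (0.0668) and with the mean over probes (0.0503).

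Cxcl12, Cxcl14 and Cxcl13, which are known as homeostatic ligands, did not pass the test. Cxcl12, or SDF-1, the ligand of Cxcr4, had log2 levels of 6.82, 6.78, 6.83 and 7.12 on its brighter probe on cinacalcet arrays 1 to 4, against 6.74, 6.83, 6.76 and 6.56 on control arrays 1 to 4 (log2 fold change 0.17, SE 0.10, limma adjusted p = 0.307). Its dimmer probe, annotated to another transcript record, had 3.00, 2.77, 2.68 and 2.96 on cinacalcet arrays 1 to 4, against 3.16, 3.28, 3.27 and 3.00 on control arrays 1 to 4 (log2 fold change -0.32, SE 0.11, adjusted p = 0.106 over probes). The probes thus leaned in opposite directions without either passing, and with the Y-linked block the dimmer probe had a log2 fold change of -0.26 with an adjusted p of 0.0486. Cxcl14, made by epithelia, had a log2 level of 2.10 to 2.71 on cinacalcet arrays, against 1.99 to 3.02 on control arrays (log2 fold change 0.03, adjusted p = 0.954), and the sign turned under 5 alternatives. Cxcl13, the B cell attractant that binds Cxcr5, was above background on 3 cinacalcet and 4 control arrays, with a log2 fold change of -1.16 (adjusted p = 0.164).

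Cxcl1, or KC, a ligand of the neutrophil receptor Cxcr2, differed in sign between the sets of arrays. Its log2 level was -1.83, -2.99, -3.63 and -1.68 on cinacalcet arrays 1 to 4, against -2.71, -2.71, -2.26 and -2.80 on control arrays 1 to 4. Cinacalcet 1 and 4 lay above all controls, and cinacalcet 2 and 3, which lack Y-linked signal, lay below them. The log2 fold change was 0.09 over the 8 arrays (limma adjusted p = 0.912). Over the 5 with Y-linked signal it was 0.80 (adjusted p = 0.0488 over genes and 0.0677 over kept probes, where the call was lost). Over the other 3 it was -0.51, with 1 control array and no test.

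**Figure D3:**
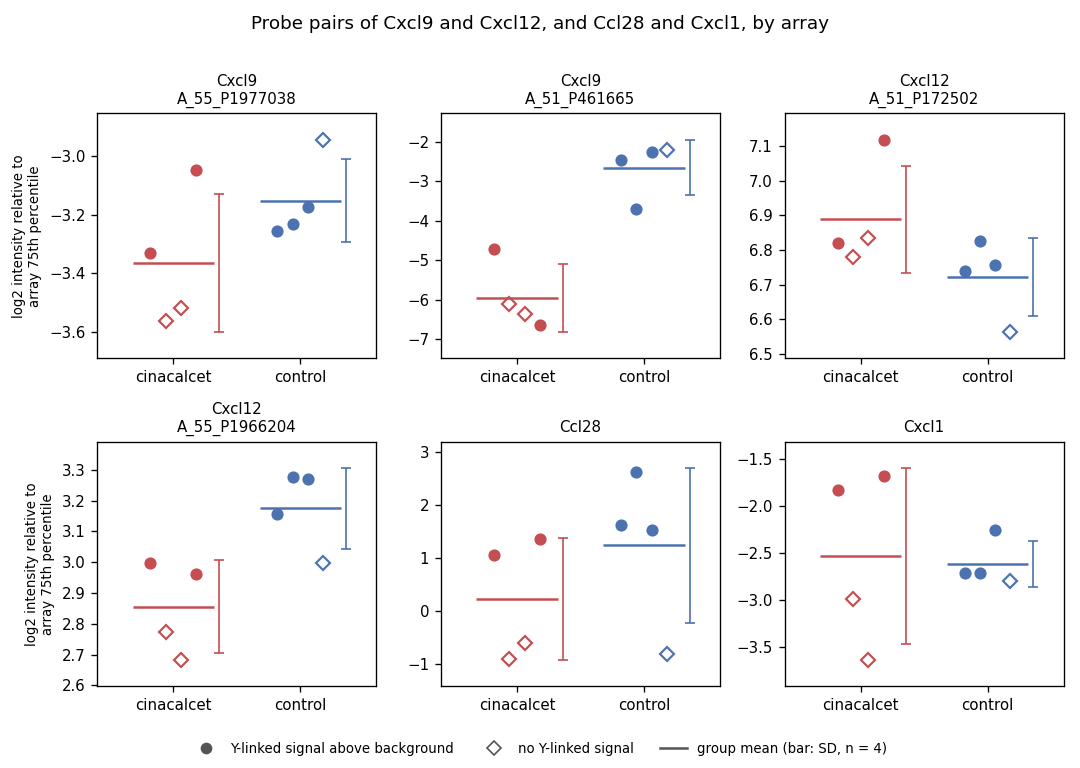
Log2 level relative to each array's 75th percentile (vertical axis) for both Cxcl9 probes, both Cxcl12 probes, Ccl28 and Cxcl1, cinacalcet arrays left of control arrays, with diamonds for arrays without Y-linked signal. The Cxcl9 probes differ in how far the groups lie apart, and the diamonds of Ccl28 sit below the circles in both groups.

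The single CX3C ligand, Cx3cl1 or fractalkine, is a membrane-bound ligand of endothelium and tubule epithelium. Its log2 level was 3.63, 3.39, 3.44 and 3.75 on cinacalcet arrays 1 to 4, against 3.82, 3.69, 3.71 and 3.67 on control arrays 1 to 4. Cinacalcet 2 and 3 were lowest and cinacalcet 4 lay within the control range. The log2 fold change was -0.17 (SE 0.09, limma adjusted p = 0.279).

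Its receptor Cx3cr1, a marker of monocytes and kidney macrophages, was lower in cinacalcet kidneys. The log2 level of its brighter probe was -0.08, -0.88, -0.45 and -0.60 on cinacalcet arrays 1 to 4, against 0.95, 0.85, 0.81 and 1.28 on control arrays 1 to 4. The groups were separated by more than the spread within either, with cinacalcet 1 the highest of its group. Cx3cr1 averaged -0.50 ± 0.33 in cinacalcet kidneys and 0.97 ± 0.21 in control kidneys (SD, n = 4 each), a 2.78-fold lower level (log2 fold change -1.47, SE 0.18, limma adjusted p = 0.00800). A second probe gave a log2 fold change of -1.46 (adjusted p = 0.0114 over probes). The gene passed with each array left out in turn, with the Y-linked block (adjusted p = 0.0054) and on the 5 arrays (log2 fold change -1.21, adjusted p = 0.0274).

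Of the 12 receptors, 7 were measured, Cx3cr1, Ccr2 and Cxcr3 fell, and the other 4 had estimates below 0 that did not pass the test. Ccr2, the receptor by which monocytes leave the bone marrow and enter tissue, had log2 levels of -3.67, -4.06, -4.79 and -5.16 on cinacalcet arrays 1 to 4, against -2.54, -2.03, -1.91 and -2.52 on control arrays 1 to 4. It was well above background on 2 cinacalcet arrays and on all 4 control arrays, and the groups did not overlap. The means were -4.42 ± 0.68 in cinacalcet kidneys and -2.25 ± 0.33 in control kidneys (SD, n = 4 each), a measured ratio of 4.49-fold lower in which the other 2 cinacalcet arrays were at background (the size is uncertain for that reason; log2 fold change -2.17, SE 0.33, limma adjusted p = 0.0129). With p adjusted over genes, Ccr2 passed with each array left out and with the Y-linked block (adjusted p = 0.00977). It also passed on the 5 arrays (log2 fold change -2.25, adjusted p = 0.0492). With p adjusted over all kept probes, the call was lost on the 5 arrays (adjusted p = 0.0662). On that scale it held in only 5 of the 8 fits with 1 array left out, with adjusted p-values of up to 0.0580. With normexp background correction the log2 fold change was -0.65 (adjusted p = 0.00868).

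Cxcr3, carried by activated T and natural killer cells and encoded on the X chromosome, binds Cxcl9 and Cxcl10. Its log2 level was -2.95, -3.49, -3.19 and -2.89 on cinacalcet arrays 1 to 4, against -2.05, -2.61, -1.91 and -1.37 on control arrays 1 to 4. The groups did not overlap, and control 4, without Y-linked signal, was again the highest control. The means were -3.13 ± 0.27 in cinacalcet kidneys and -1.98 ± 0.51 in control kidneys (SD, n = 4 each), a 2.21-fold lower level (log2 fold change -1.14, SE 0.25, limma adjusted p = 0.0354). On the 5 arrays the log2 fold change was -0.73 and the call was lost (adjusted p = 0.0925). It was also lost without any one of the cinacalcet arrays, without control 1 and without control 3 (adjusted p-values of 0.0513 to 0.100), and with no filter (0.0716). The estimate was -0.46 with normexp background correction (adjusted p = 0.0414).

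Ccr7, the lymph-node homing receptor for Ccl19, narrowly missed the threshold. Its log2 level was -3.54, -3.61, -3.64 and -4.05 on cinacalcet arrays 1 to 4, against -2.52, -3.27, -2.93 and -3.27 on control arrays 1 to 4. The groups did not overlap, and the log2 fold change was -0.71 (SE 0.19, limma adjusted p = 0.0573). Leaving out control 4 gave -0.80 with an adjusted p of 0.0281. Cxcr6, the receptor of Cxcl16, had -1.95, -2.09, -1.89 and -1.50 on cinacalcet arrays 1 to 4, against -0.73, -1.96, -1.32 and -0.55 on control arrays 1 to 4, with control 2 inside the cinacalcet range (log2 fold change -0.71, adjusted p = 0.164). Ccr6 (log2 fold change -0.52, adjusted p = 0.285) and Ccr9 (-0.32, adjusted p = 0.407) had overlapping groups. Counting Ccr7, 9 of the 26 genes had every cinacalcet array below every control array and 0 the reverse, against 10.5% and 7.34% of all genes tested. Ccl12 is among the 9, and since its difference was built into the filter it lends no support to this count either.

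Set side by side, receptors and their ligands gave these calls. Ccr2 fell, and of its ligands Ccl12 was called lower with a difference built into the filter, while Ccl2 did not pass the test. Cxcr3 fell with Cxcl10, while the Cxcl9 call rested on 1 of 2 probes. Cx3cr1 fell and Cx3cl1 did not pass. Cxcl16 fell (log2 fold change -0.47) and its receptor Cxcr6 did not pass, with a lower estimate and a wider spread (-0.71). The difference between the partners of a pair was not tested.

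The array on which a gene was highest was not spread evenly over these genes. Control 4 was the highest control for 6 of the 8 genes that fell and for 12 of the 26 measured, against 30.7% of all genes tested, although it was the lowest control for 47.5% of all genes. Cinacalcet 1 was the highest of its group for 14 of the 26, against 23.4% of all genes. With p adjusted over genes, Cxcl10, Ccr2 and Cx3cr1 were called with every array left out in turn, as was Ccl12 with its built-in difference. Ccl4, Ccl5, Cxcl16 and Cxcr3 were not. The fits to fewer arrays kept the filter and probe choice made on all 8. Without any one control array, Ccl12 would be above background on fewer than 4 arrays and would not meet the filter. Its call in those fits therefore lends no support.

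The other 14 genes of the group were under the filter. Not well above background on any array were the ligands Ccl3, Ccl7, Ccl11, Ccl20, Ccl22, Ccl24, Cxcl2, Cxcl5 and Cxcl15 and the receptors Ccr1, Ccr3, Cxcr2 and Cxcr5, 13 genes in all. Cxcr4, the receptor of Cxcl12, was above background on 1 cinacalcet and 1 control array. Such probes give only an upper limit on each level, so a difference in these genes was not detectable here.

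Many of these genes lie in clusters, taken here as genes of the list no more than 10 protein-coding genes apart, and the genes that fell did not fill any multi-gene cluster. On chromosome 11 the cluster of Ccl2, Ccl7, Ccl11, Ccl12 and Ccl8 had 3 of 5 genes measured and 1 called (Ccl12), and the cluster of Ccl5, Ccl9, Ccl6, Ccl3 and Ccl4 had 4 of 5 measured and 2 called (Ccl5 and Ccl4). On chromosome 5, Cxcl9 and Cxcl10 lay side by side and 1 of 2 was called, while of Cxcl5, Cxcl15, Cxcl1 and Cxcl2 only Cxcl1 was measured and 0 were called. On chromosome 9 the receptor cluster of Ccr9, Cxcr6, Ccr1, Ccr3 and Ccr2 had 3 of 5 measured and 1 called (Ccr2). On chromosome 8, Ccl22, Cx3cl1 and Ccl17 had 2 of 3 measured and 0 called.

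In the rest of the chemokine system few genes passed, where 8.08% of all genes tested did. Of 10 other chemokines 4 were measured and 0 passed, with Pf4, a platelet chemokine, at a log2 fold change of -0.56 (limma adjusted p = 0.112) and Ccl27a, an epithelial one, at -0.23 (adjusted p = 0.151). On the 5 arrays Ccl27a was called lower (-0.36, adjusted p = 0.0425). Of 12 other and atypical receptors 4 were measured and 0 passed, with Ccrl2 at -0.40 (adjusted p = 0.0612) and Ccr10, a receptor of Ccl28 and Ccl27a, at -1.38 (adjusted p = 0.126). Ccr10 was called lower with the Y-linked block (-1.61, adjusted p = 0.0462) and on the 5 arrays (-1.66, adjusted p = 0.0319), and it was above background on 1 cinacalcet and 3 control arrays. Of 18 genes of receptor signalling 12 were measured and 1 fell, Rac2, a leukocyte GTPase of cell migration (1.47-fold lower, log2 fold change -0.56, adjusted p = 0.0176). Of 14 genes of chemokine processing and presentation 11 were measured and 1 fell, Adam10, the protease that sheds Cx3cl1 and Cxcl16 (1.31-fold lower, log2 fold change -0.39, adjusted p = 0.0225). With the Y-linked block, Arrb2 of the signalling list and Dpp4 of the processing list also fell. The medians of these 4 lists were -0.39, -0.43, -0.11 and -0.13.

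Among 28 genes that induce chemokine transcription, 17 were measured, 1 rose and 1 fell, and the median log2 fold change was -0.08. Nfkbia, the inhibitor of NF-kB that is itself an NF-kB target, had log2 levels of 4.90, 5.02, 4.82 and 5.05 on cinacalcet arrays 1 to 4, against 4.43, 4.21, 4.43 and 4.08 on control arrays 1 to 4, 1.58-fold higher without overlap (log2 fold change 0.66, limma adjusted p = 0.0142). Csf1, the macrophage growth factor, fell (log2 fold change -0.38, adjusted p = 0.0282), and the call was lost on the 5 arrays (-0.30, adjusted p = 0.0794). The interferon regulatory factors Irf1 (log2 fold change -0.74, adjusted p = 0.0572) and Irf7 (-0.83, adjusted p = 0.0509), known as inducers of Cxcl10 among others, did not pass; they were chosen for naming after their values were seen. Irf7 was called lower with the Y-linked block (-0.69, adjusted p = 0.0103). Tnf, Il1a, Il6, Ifng and Ifnb1 were not well above background on any array. With the Y-linked block 2 genes of this list rose and 6 fell, against 6.12% and 11.2% of all genes. On the 5 arrays 2 rose and 1 fell, against 2.39% and 6.63%.

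Markers of the cells that carry these receptors moved too, and their part in the chemokine results was not tested. Of 25 markers of monocytes, macrophages and dendritic cells, 21 were measured and 10 fell, 0 rose, with a median log2 fold change of -0.74. Over all genes tested, 5.03% fell and 3.06% rose. Adgre1, which encodes the macrophage marker F4/80, had a log2 fold change of -1.66 (limma adjusted p = 0.0185), Fcgr1 one of -1.67 (adjusted p = 0.0175) and Itgax, which encodes CD11c, one of -1.20 (adjusted p = 0.0127). Cd207, which encodes langerin, was at least 2.27-fold lower, being under background on all cinacalcet arrays (adjusted p = 0.0138), but it passed the filter through the control arrays alone, so a difference was built in. The summed log2 level of the measured markers was 8.73 to 8.81 on cinacalcet arrays, against 8.75 to 8.94 on control arrays, so the ranges overlapped. Linear signals were added before taking log2, so the brightest markers dominate this sum and those of the other leukocyte lists. Cd163 was not above background on any array. With the Y-linked block 13 of these markers fell, against 11.2% of all genes. On the 5 arrays 5 did, against 6.63% of all genes, and Fcgr1 was not among them (-1.38, adjusted p = 0.0724).

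Markers of other leukocytes were counted in the same way, beside 5.03% lower and 3.06% higher among all genes tested. Of 16 neutrophil and eosinophil markers 8 were measured, 4 rose and 1 fell, with a median log2 fold change of 0.62. Their summed log2 level was 7.47 to 7.52 on cinacalcet arrays, against 7.09 to 7.46 on control arrays. The S100a9 levels given next lie far below that sum, so brighter markers of the list set it. S100a9, a calcium-binding protein of neutrophils, had a log2 level of 1.38, 1.91, 1.58 and 1.29 on cinacalcet arrays 1 to 4, against -0.43, -0.54, -0.61 and 0.56 on control arrays 1 to 4 (3.47-fold higher, log2 fold change 1.79, limma adjusted p = 0.0126). S100a8 (log2 fold change 1.56, adjusted p = 0.0230), Retnlg (2.58, adjusted p = 0.0220, above background on 4 cinacalcet and 1 control array) and Il5ra (0.91, adjusted p = 0.0175) also rose. For Retnlg the cinacalcet arrays alone met the filter and the other control arrays were at background. Its size is therefore uncertain and its p is no independent support. Ltf, named after its value was seen, fell (-0.74, adjusted p = 0.0485), a call lost on the 5 arrays (-0.76, adjusted p = 0.144). The listed neutrophil and eosinophil genes Mpo, Mmp8, Prtn3, Il1r2, Prg2, Epx and Siglecf were not above background on any array, nor was the neutrophil receptor Cxcr2. Of 20 lymphocyte and natural killer cell markers 12 were measured and 1 fell, Gzma, a granule protease (2.85-fold lower, log2 fold change -1.51, adjusted p = 0.0336), with a median of -0.24 and a summed log2 level of 3.16 to 3.37 on cinacalcet arrays, against 3.33 to 3.62 on control arrays. With the Y-linked block 2 lymphocyte markers fell, against 11.2% of all genes. On the 5 arrays 0 did, against 6.63% of all genes, with Gzma at -1.02 (adjusted p = 0.0611). Cd8b1, Ms4a1, Ncr1 and Gzmb were not above background on any array. Of the 20 genes called in all these lists, Itgax and S100a9 were called with every array left out in turn. So was Cd207 with its built-in difference, in fits that kept the filter made on all arrays. The remaining 17 were each lost in at least 1 such fit, at adjusted p-values of up to 0.124.

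**Figure D4:**
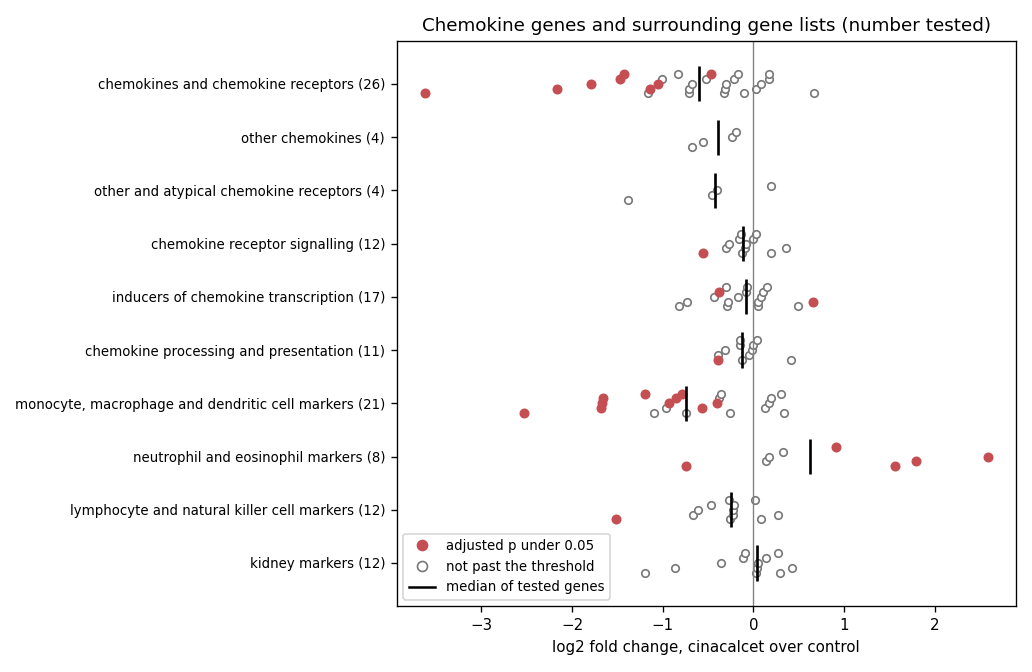
Log2 fold change, cinacalcet minus control (horizontal axis), of each measured gene in the chemokine and receptor group and in the surrounding lists (rows), one point per gene, marked where the limma adjusted p is under 0.05, with a line at each median. The chemokine and receptor group and the monocyte, macrophage and dendritic cell markers lie mostly below 0, with medians of -0.60 and -0.74, and the neutrophil and eosinophil markers mostly above it, with a median of 0.62.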

How the data were processed

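RNA of 8 kidney samples was measured in a single colour (Cy3) on Agilent arrays of 62976 spots. The deposited values are spot intensity on a linear scale, made by the authors with Feature Extraction 11.0.1.1 per the file headers, where background was subtracted; version 9.5 of Agilent Feature Extraction is named in the submitters' processing notes. All arrays lay on 1 slide with 1 scan time, so neither could be tested as a batch.

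Control spots and spots marked as outliers (118 to 147 per array) were left out, spots of a probe were averaged, and 31 of 55681 probes with no usable spot on an array were dropped. The intensity was taken as log2 and each array's 75th percentile (178.1 to 222.9) was subtracted. Through RefSeq accessions (GRCm38.p6) 27217 probes were named with 1 gene and 28433 were not named; none had several names. The filter asked for a signal well above background on 4 or more of the 8 arrays, and the brightest probe that passed stood for its gene. The filter and probe choice were not redone in fits to fewer arrays. Levels of different probes were not compared, apart from the sums over marker lists, which add linear signals.

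Groups come from the sample titles. They were compared with lmFit and eBayes of limma 3.58.1 under R 4.3.3, two-sided, with Benjamini-Hochberg adjustment over 14205 genes or 29732 kept probes and a threshold of 0.05. The fit was tested on simulated data. The chemokine list, the surrounding lists and the alternatives were chosen with earlier results of these data known. Genes named are all listed chemokines and receptors and, from each surrounding list, the 4 called genes of lowest p or, with none called, at most 2 genes. Outside that rule, genes named as tissue markers or as under background describe the samples, and Irf1, Irf7, Ltf and the genes whose call changed between fits were chosen after their values were seen. Alternatives were quantile normalization, normexp on the median spot signal with an offset of 50, other filters, the mean over probes, trend and robust eBayes, array weights, a block for each of replicate number, slide row and Y-linked signal, a fit to the 5 arrays that carry Y-linked signal, and leaving out each array.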

Additional observations from a re-analysis of the deposited data

Results flagged for a closer look

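In 3 of 66 groups of 4 values a single array stood far from the other 3, and about 1 in 20 such groups does so by chance. On the Cxcl9 probe A_51_P461665, control 2 had a log2 level of -3.69, with the other controls at -2.45 to -2.20. On the Cxcl12 probe A_51_P172502, cinacalcet 4 had a log2 level of 7.12, with the other cinacalcet arrays at 6.78 to 6.83. For Cxcl13, cinacalcet 3 had a log2 level of -5.99, with the other cinacalcet arrays at -4.09 to -3.78. Neither Cxcl12 nor Cxcl13 was called, and the difference on the Cxcl9 probe was built into the filter.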

How the results depend on the processing

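The counts of called genes, chemokine genes, chemokine probes and surrounding-list genes were 1148, 8, 9 and 20. With no background filter they were 380, 5, 6 and 12, and with array weights 5610, 14 (13 lower, 1 higher), 16 and 52. With Y-linked signal as a block they were 2459, 8, 11 and 35, and on the 5 arrays with that signal 1282, 7, 4 and 18. Leaving out each array gave 222 to 3592 genes (fewest without control 2, most without control 4), 4 to 10 chemokine genes, 5 to 13 probes and 4 to 32 list genes. Quantile normalization, normexp, the stricter filter, the mean over probes, trend and robust eBayes and the slide row block kept each count within 1.5 times, and moved the median of all genes by less than 0.1. Replicate numbers did not pair the samples, with correlations of deviations of 0.34, -0.54, -0.36 and -0.56, and with the replicate block limma called 0 genes, 0 chemokine genes, 0 probes and 0 list genes, against 2890, 14, 17 and 37 at an unadjusted p under 0.05.

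Of 494 values for single chemokine genes 426 kept direction and side of the threshold, 41 lost the call, 12 gained one and 15 turned sign, in genes that were not called. The log2 fold change of Ccl9 was 0.086 with the Y-linked block and 0.043 on the 5 arrays, and -0.31 to 0.086 with each array left out, above 0 without cinacalcet 3 or control 3. On the 5 arrays Ccl19 was at 0.059 and Cxcl9 at 0.032. Cxcl12 was at -0.077 with the mean over probes. Cxcl1 was at -0.32 with array weights and -0.20 to 0.45 with each array left out, below 0 without cinacalcet 1 or cinacalcet 4. Cxcl14 was at -0.094 with the Y-linked block and -0.11 to 0.23 with each array left out, below 0 without cinacalcet 1, cinacalcet 2, control 1 or control 3. The cause was not tested. Normexp gave smaller fold changes for dim probes such as those of Ccl12 and Ccr2, and 4 arrays per group limit the precision.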
